A study of Homo sapiens with 6 samples.

Results

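Kinesins are the ATP-driven motors that carry cargo along microtubules or reshape the microtubules themselves, and 42 of the 56638 gene symbols in the deposited files belonged to them. Members were taken by symbol alone, as KIF followed by a number and at most one letter from A to C. KIFC1, KIFC2 and KIFC3 were taken too. No measured value enters this rule, but the members and lists were chosen with earlier results of these data known. By known function, 15 were placed with the mitotic kinesins, 15 with the transport kinesins, 6 with the kinesins of cilia and centrioles, and 6 with the remaining ones. Of these, 38 had enough reads to be tested, namely 14 mitotic, 14 transport, 4 ciliary and all 6 remaining genes. CENPE and STARD9 are kinesins by sequence that carry other names. They were followed beside the members, as was KIFAP3, which is no motor but the cargo adaptor of kinesin-2.

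RNA was sequenced from the colorectal cancer cell line SW480 after transfection of an siRNA against lncRNA-AF339830, which the study calls GLCC1, or of a nonspecific control siRNA, with 3 libraries in each group. All 6 libraries came from unmodified cells of 1 line at passage 16 to 19 and were run on lane 7, and nothing in the labels says that they came from separate cultures, so the p-values measure the spread between these libraries. The labels name SW480 while the methods of the study name DLD-1 for the sequencing, and which of the study's siRNAs was sequenced is not stated. The genotype tag reads siRNA1 in every library of a group, whereas the titles end in siRNA1, siRNA2 and siRNA3, and the numbers of the titles were taken as replicate numbers. The library names carry AF123 on the libraries titled control and NC on those titled lncRNA-AF339830 siRNA. The groups used here follow the titles, and exchanging them would turn the sign of every difference below. With the groups as titled, tested genes with a 3′ UTR match to bases 2 to 8 of siRNA 1, described at the end, had a median of -0.18 on the log2 scale and genes without one a median of -0.02, which was not tested. UTR lengths were not matched between these genes, and siRNA 1 may not be the one sequenced, so these medians do not settle the labels. No symbol for GLCC1 is in the files, so the knockdown could not be checked against them.

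Counted read pairs ranged from 15002165 to 19042516 in the control group and from 11948790 to 18390975 in the libraries labelled GLCC1 siRNA. The smallest of them, GLCC1 replicate 2, also stood apart from the rest of its group. Its counts differed from those of the other GLCC1 libraries by a chi-square per degree of freedom of 18.1 and 19.0, whereas those 2 libraries differed from each other by 3.28 and the control libraries by 1.93 to 4.16. Values without it are therefore also given where a kinesin gained or lost its call by leaving it out. Of the colon epithelium markers, 9 of 10 were at 1 CPM or more, a unit that divides a gene's count by the size of its library after TMM scaling. Their summed level was 5680 to 6220 CPM in the control libraries and 2280 to 2720 CPM in the GLCC1 libraries, and 7 of the 10 fell. The sums of the marker lists for neurons, motile cilia, leukocytes, fibroblasts and endothelium stayed between 0.318 and 22.5 CPM in every library, 1 gene rose in each of the neuron and motile cilia lists, and 1 fell in the fibroblast list. The part of these markers in the kinesin values was not tested.

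Mitotic kinesins build the spindle, line chromosomes up on it and cut the cell apart afterwards, and their genes are transcribed mainly in late S phase, G2 and mitosis. That timing is set by the CHR element (cell cycle genes homology region), bound by MuvB complexes, and by CCAAT boxes, bound by NF-Y. Transport kinesins instead carry vesicles, mitochondria, endosomes and ciliary cargo throughout the cell cycle, and many of them have most of their known work in neurons. In bulk RNA, fewer cells in mitosis and less mRNA per cell cannot be told apart.

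The promoters of the classes differed in these elements. Windows from 250 bases before to 50 bases after the start site (RefSeq, GRCh38.p14) were found for 34 of the 42 members. The CHR letters TTTGAA or TTCGAA, read on both strands, stood in 11 of 15 mitotic windows (73.3%) and in 2 of the 19 other member windows (10.5%), against 16.6% of all 27305 windows. CCAAT, also read on both strands and able to share at most 1 end base with a CHR match, stood in 11 of 15 mitotic windows (73.3%), in 6 of 19 others (31.6%) and in 35.7% of all. Both motifs were present together in 10 mitotic windows (66.7%) and in 2 others (10.5%), those of KIF5B and KIF24, against 6.58% of all. CACGTG, the E-box that c-Myc can bind, was in 0 of the 34 windows and in 7.43% of all, which says only that these letters are not in those windows. The lines that follow show the stretch around the CHR match, in capitals, for the called mitotic genes that have one, for KIF23 as a steady gene of the same kind, for KIF4A with its intronless copy KIF4B, and for KIF5B as the transport gene with both motifs.
KIF20B, chr10:89701602-89701631, plus strand: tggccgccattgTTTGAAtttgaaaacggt
KIF18B, chr17:44947754-44947783, minus strand: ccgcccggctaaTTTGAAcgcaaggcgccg
KIF23, chr15:69414282-69414311, plus strand: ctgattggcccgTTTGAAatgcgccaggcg
KIF4A, chrX:70290058-70290087, plus strand: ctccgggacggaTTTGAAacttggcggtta
KIF4B, chr5:155013746-155013775, plus strand: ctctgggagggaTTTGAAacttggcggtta
KIF5B, chr10:32056548-32056577, minus strand: agtgcagtaaaaTTTGAAtctgcgaccccg
Each sequence runs 5′ to 3′ on the strand of its gene. In KIF20B a further CHR match, left in small letters, follows the marked one directly. KIF20A, the other called mitotic gene, had a pair of CCAAT matches and no CHR match, and neither motif was found for KIF2A, KIF2B or KIF2C. A match is a description of the letters and not a bound site.

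Across the kinesins, 17 of 38 tested genes (44.7%) passed an adjusted p of 0.05 (edgeR's quasi-likelihood test with Benjamini-Hochberg adjustment over 23074 genes), 7 higher and 10 lower in the GLCC1 libraries. The background was 31.6% of all genes tested (14.9% higher, 16.7% lower) and 49.4% of the 11666 genes averaging 5 CPM or more (20.7% higher, 28.7% lower), the range in which 32 of the 38 members lie. Among the mitotic kinesins 3 of 14 were called (21.4%), 1 higher and 2 lower. Among the transport kinesins 10 of 14 were called (71.4%), 5 higher and 5 lower. In that range the shares were 3 of 13 (23.1%) and 9 of 12 (75.0%), one below and one above the background of 49.4%, and the difference between the classes itself was not tested. The 3 control values lay wholly above or below the 3 GLCC1 values for 4 of 14 mitotic and 11 of 14 transport kinesins, where this was so for 46.3% of all genes tested and 63.1% of those at 5 CPM or more. Of the members, 8 were called and changed at least 1.5-fold, 1 of them mitotic and 5 of them transport kinesins, against 17.4% of all genes tested and 21.6% of those at 5 CPM or more. For a single gene, an exact two-sided permutation test of 3 against 3 libraries cannot go below a p of 0.1.

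The transport kinesins moved in both directions, with a median that was small beside the spread of the class. Their median log2 fold change was 0.05 and the median of its size 0.58, against 0.03 and 0.17 in the mitotic kinesins and 0.03 and 0.43 in all genes tested. In the range of 5 CPM or more, the median log2 fold change was -0.11 in transport kinesins, 0.01 in mitotic kinesins and -0.06 in all. The median size in this range was 0.51 in transport kinesins, 0.18 in mitotic kinesins and 0.30 in all. Set against the control mean library by library, on a log2 scale with 0.5 CPM added, the 12 transport kinesins of this range deviated by a median size of 0.04 to 0.06 in the control libraries and 0.45 to 0.53 in the GLCC1 libraries. The 13 mitotic kinesins deviated by 0.02 to 0.05 and 0.08 to 0.22, with the highest value in GLCC1 replicate 2, and all 11666 genes by 0.04 to 0.05 and 0.28 to 0.38. Each GLCC1 library taken alone thus showed the transport kinesins above and the mitotic kinesins below the value for all genes.

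**Figure D1:**
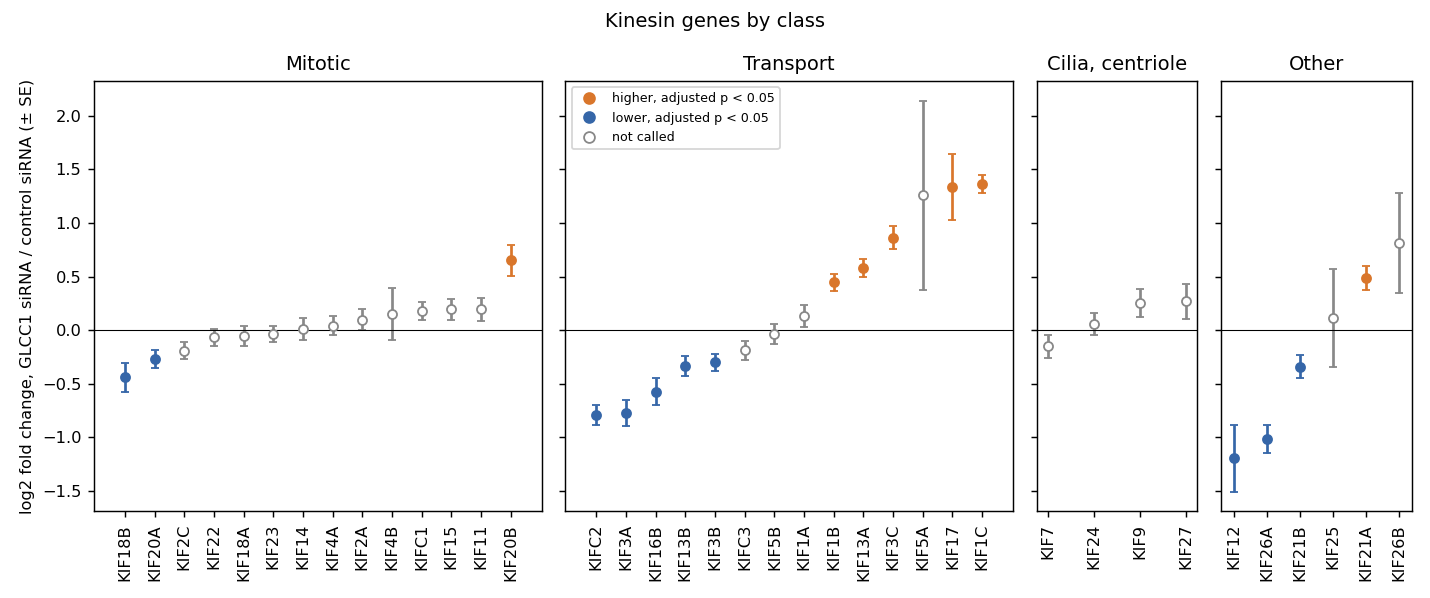
Log2 fold change of the 38 tested kinesins, GLCC1 siRNA over control siRNA, by class, with genes in order of their value. Points are edgeR estimates, bars are 1 SE, and filled points passed an adjusted p of 0.05. Of the mitotic kinesins 11 of 14 are open and lie between -0.19 and 0.19, while 10 of 14 transport kinesins are filled, 5 on each side of 0.

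These counts depended on the libraries included and on the scaling. Of the single-library omissions, those of GLCC1 replicate 2 and control replicate 2 changed the number of members called most. Without GLCC1 replicate 2, 22 members were called (57.9%), 2 higher and 3 lower of the mitotic kinesins and 6 higher and 7 lower of the transport kinesins, while the background rose to 44.1% of all genes and 66.1% of those at 5 CPM or more. Without control replicate 2, 12 were called, 1 mitotic kinesin higher and none lower, and 5 transport kinesins higher and 3 lower, with backgrounds of 23.2% and 36.9%. Scaling by library totals alone moved the median of all genes from 0.03 to 0.15. The split of members then became 11 higher and 5 lower, with 4 higher and 0 lower mitotic kinesins and 5 higher and 3 lower transport kinesins, against backgrounds of 32.6% and 49.9%. Under this scaling KIF18B, KIF20A, KIF3B, KIF13B and KIF21B were no longer called (edgeR, adjusted p = 0.075, 0.22, 0.12, 0.11 and 0.14), while KIF11, KIF15, KIFC1 and KIF9 were called higher (edgeR, adjusted p = 0.040, 0.031, 0.013 and 0.043).

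KIF20B, which acts in the completion of cytokinesis, was the only mitotic kinesin that rose. It was at 148, 127 and 138 CPM in the control libraries and at 187, 283 and 181 CPM in the GLCC1 libraries, a rise of 1.57-fold (log2 fold change 0.65 ± 0.14 SE; edgeR, adjusted p = 0.0031). The groups did not overlap, and GLCC1 replicate 2 lay far above the other libraries. Without it the log2 fold change was 0.42 (edgeR, adjusted p = 1.9e-08).

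KIF18B, which limits the length of astral microtubules, and KIF20A (MKLP2), which brings the chromosomal passenger complex to the central spindle, fell. KIF18B was at 106, 122 and 106 CPM in the control libraries and at 92.1, 62.0 and 91.5 CPM in the GLCC1 libraries (log2 fold change -0.44 ± 0.13 SE; edgeR, adjusted p = 0.022). GLCC1 replicate 2 was the lowest library by a wide margin, and without it the log2 fold change was -0.28 (edgeR, adjusted p = 0.00015). Without control replicate 2, the highest library, KIF18B was no longer called (edgeR, adjusted p = 0.12). KIF20A was at 151, 152 and 160 CPM in the control libraries and at 137, 116 and 131 CPM in the GLCC1 libraries (log2 fold change -0.27 ± 0.09 SE; edgeR, adjusted p = 0.032). Its groups did not overlap, yet the adjusted p lay between 0.051 and 0.15 after leaving out any 1 of the 3 control libraries or GLCC1 replicate 3.

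The other 11 tested mitotic kinesins had log2 fold changes between -0.19 and 0.19, and none was called. They include some of the most abundant kinesins of these cells. KIF11 (Eg5), the motor that pushes spindle poles apart, was at 242 ± 5.19 CPM in the control and 278 ± 48.9 CPM in the GLCC1 libraries (SD, n = 3), the latter widened by 334 CPM in GLCC1 replicate 2, and without that library its log2 fold change went from 0.19 to 0.05. KIF23 (MKLP1), the motor of centralspindlin, was at 217 ± 3.40 and 212 ± 11.5 CPM. KIFC1 (HSET), a minus-end motor that clusters spindle poles, was at 165 ± 7.91 and 187 ± 14.6 CPM, and KIF2C (MCAK), the centromeric microtubule depolymerase, at 119 ± 5.15 and 105 ± 3.60 CPM. KIF2C was the only one of the 11 whose groups did not overlap. Both KIFC1 and KIF2C were called once GLCC1 replicate 2 was left out, with log2 fold changes of 0.25 and -0.17 (edgeR, adjusted p = 0.00011 and 0.010).

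The rest of the spindle set showed no call in any single-library omission. KIF15, the motor that can stand in for KIF11, had a log2 fold change of 0.19 ± 0.10 SE, and KIF22 (Kid), which pushes chromosome arms to the plate, of -0.07 ± 0.08 SE. KIF14, which recruits citron kinase to the midbody, was at 0.01 ± 0.10 SE, KIF18A, which dampens chromosome movement at the plate, at -0.05 ± 0.09 SE, and KIF2A, which shortens microtubules at spindle poles, at 0.10 ± 0.10 SE. KIF2B had no read in any of the 6 libraries. Other genes, nearly all on the other strand, overlap the exons of several members, among them KIFC1 (by RPL12P1). They cover 21.3% of the exon bases of KIF2A, 5.35% of KIF20A and 7.77% of KIF13B. Without strand the reads there cannot be told apart, and union-mode counting without strand would set them aside as ambiguous.

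KIF4A, the chromosome-arm motor that works with PRC1 at the central spindle, was at 89.0, 81.7 and 89.6 CPM in the control libraries and at 89.6, 94.2 and 84.3 CPM in the GLCC1 libraries. Its copy KIF4B was at 2.47, 1.76 and 1.51 CPM against 1.93, 2.39 and 2.07 CPM. Values of both genes overlapped between the groups. Their coding sequences are 95.9% identical, so reads of KIF4A could be counted to KIF4B, and the level of KIF4B is uncertain. Reads that align equally well to both copies could be dropped as not uniquely aligned, which would lower both counts.

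**Figure D2:**
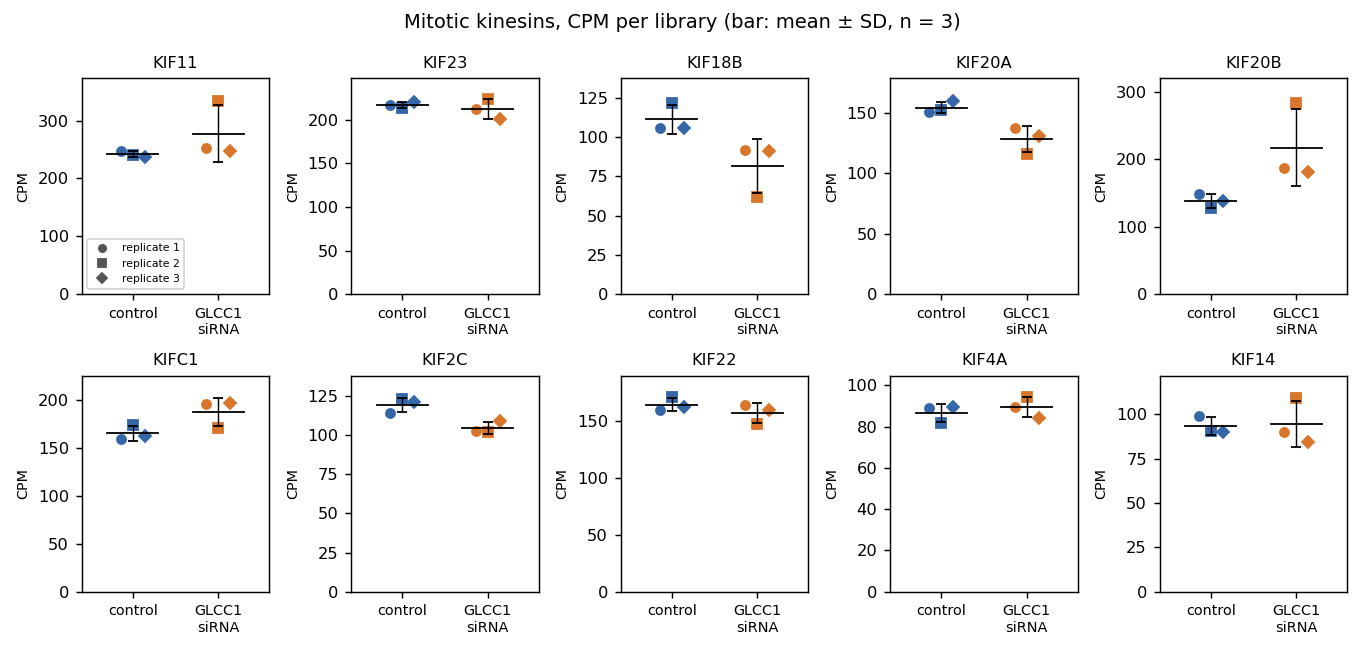
CPM of 10 mitotic kinesins in each library, with a different marker for each replicate number, horizontal lines at the means and bars of 1 SD (n = 3). GLCC1 replicate 2 is the extreme library for KIF11 (334 CPM), KIF20B (283 CPM) and KIF18B (62.0 CPM), while KIF23 stays between 201 and 224 CPM in all libraries.

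Kinesin-3 motors carry vesicles, endosomes and mitochondria, and 3 of the transport members of this family rose while a pair fell. KIF1C, a carrier of dense-core vesicles, integrins and mRNA, rose. It was at 60.5, 65.0 and 65.9 CPM in the control libraries and at 164, 155 and 175 CPM in the GLCC1 libraries, a 2.58-fold rise (log2 fold change 1.37 ± 0.09 SE; edgeR, adjusted p = 1.3e-07). The lowest GLCC1 library was thus far above the highest control library. KIF1B, which carries mitochondria and vesicles, was at 186, 181 and 177 CPM against 249, 255 and 236 CPM, a 1.36-fold rise (log2 fold change 0.45 ± 0.08 SE; edgeR, adjusted p = 0.00053). The groups lay well apart and each was tight.

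KIF13A and KIF13B are close relatives that moved in opposite directions. The endosome motor KIF13A was at 54.2, 51.4 and 56.7 CPM in the control libraries and at 82.5, 81.8 and 78.3 CPM in the GLCC1 libraries (log2 fold change 0.58 ± 0.09 SE; edgeR, adjusted p = 0.00017). KIF13B, which carries DLG1 and PIP3-bearing vesicles, was at 54.4, 60.1 and 50.9 CPM against 46.2, 40.7 and 44.2 CPM (log2 fold change -0.33 ± 0.10 SE; edgeR, adjusted p = 0.018). Neither pair of groups overlapped, and per kb of exon the levels of the 2 genes were nearly equal in the control libraries, at 4.86 and 4.96 CPM. The call of KIF13B was lost without control replicate 1 or control replicate 2 (edgeR, adjusted p = 0.059 and 0.11), whereas KIF13A was called in all 6 single-library omissions.

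KIF16B, a motor of early endosomes, also fell. It was at 23.2, 25.2 and 29.3 CPM in the control libraries and at 15.8, 20.3 and 16.5 CPM in the GLCC1 libraries (log2 fold change -0.57 ± 0.13 SE; edgeR, adjusted p = 0.0032). The highest GLCC1 value came from replicate 2 and was still below the lowest control value. KIF1A, the synaptic vesicle precursor motor of neurons, was at 66.5 ± 5.99 and 72.9 ± 7.85 CPM (SD, n = 3) and was called only when GLCC1 replicate 2 was left out (log2 fold change 0.22; edgeR, adjusted p = 0.0042).

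Kinesin-2 works as a pair of motor subunits held to their cargo by KIFAP3, most often KIF3A with KIF3B and otherwise KIF3A with KIF3C, and its best known task is transport in cilia. All 4 kinesin-2 motors were called, KIF3A and KIF3B lower and KIF3C and KIF17 higher. KIF3A was at 75.9, 69.9 and 77.9 CPM in the control libraries and at 38.5, 53.4 and 39.5 CPM in the GLCC1 libraries (log2 fold change -0.77 ± 0.12 SE; edgeR, adjusted p = 0.00027). GLCC1 replicate 2 lay between the control libraries and the other GLCC1 libraries. KIF3B was at 91.5, 95.1 and 94.5 CPM against 75.9, 77.5 and 75.3 CPM, a smaller fall (log2 fold change -0.30 ± 0.08 SE; edgeR, adjusted p = 0.011). Its groups were tight and separate, but the call was lost without control replicate 2 or control replicate 3 (edgeR, adjusted p = 0.059 and 0.066).

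KIF3C, the alternative partner of KIF3A, was at 22.2, 21.3 and 19.8 CPM in the control libraries and at 40.6, 33.3 and 40.8 CPM in the GLCC1 libraries, a 1.82-fold rise (log2 fold change 0.86 ± 0.11 SE; edgeR, adjusted p = 4.8e-05). All GLCC1 libraries were above all control libraries. KIF17, which works as a homodimer, was scarce, with 8, 16 and 11 read pairs in the control libraries and 36, 17 and 37 in the GLCC1 libraries (log2 fold change 1.34 ± 0.31 SE; edgeR, adjusted p = 0.0045). As shares of all counts its groups did not overlap, at 0.549 to 0.882 and 1.35 to 2.07 CPM. The adaptor KIFAP3 was at 19.5, 19.6 and 18.4 CPM against 14.2, 17.5 and 12.1 CPM and fell (log2 fold change -0.40 ± 0.13 SE; edgeR, adjusted p = 0.033), a call that was kept in only 1 of the 6 single-library omissions.

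KIF3A and KIF3C came closer to each other in the GLCC1 libraries on a scale per length. Per kb of exon, KIF3A stood at 11.1, 10.2 and 11.4 CPM and KIF3C at 3.47, 3.33 and 3.09 CPM in the control libraries. In the GLCC1 libraries KIF3A stood at 5.61, 7.79 and 5.76 CPM and KIF3C at 6.34, 5.21 and 6.38 CPM per kb. KIF3C thus exceeded KIF3A in GLCC1 replicates 1 and 3 and not in replicate 2. The ratio of KIF3C to KIF3A counts was 0.293, 0.305 and 0.254 in the control libraries and 1.05, 0.624 and 1.03 in the GLCC1 libraries. This ratio was chosen after the values were seen and was not tested.

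**Figure D3:**
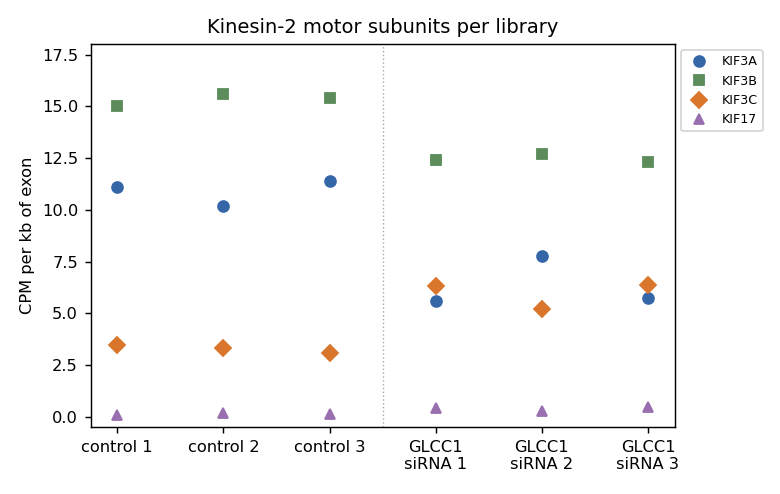
Level of the kinesin-2 motor subunits in each library, in CPM per kb of exon on a linear axis. KIF3B is highest everywhere (12.3 or more), KIF3A falls from 10.2 or more in the control libraries to 5.61, 7.79 and 5.76 in the GLCC1 libraries, KIF3C rises to between 5.21 and 6.38, and KIF17 stays below 0.5.

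Kinesin-1 was represented almost wholly by KIF5B, the heavy chain used by all cells. KIF5B was at 515, 487 and 504 CPM in the control libraries and at 447, 567 and 455 CPM in the GLCC1 libraries (log2 fold change -0.04 ± 0.09 SE; edgeR, adjusted p = 0.80). GLCC1 replicates 1 and 3 lay below all control libraries and replicate 2 above them, and without replicate 2 the gene was called lower (log2 fold change -0.15; edgeR, adjusted p = 0.016). The neuronal heavy chains KIF5A and KIF5C had at most 7 and 1 read pairs in any library, and KIF5C was not tested.

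The minus-end transport motors KIFC2 and KIFC3 belong to kinesin-14. KIFC2, known from neurons, was at 78.4, 81.9 and 74.0 CPM in the control libraries and at 46.9, 40.7 and 47.8 CPM in the GLCC1 libraries (log2 fold change -0.79 ± 0.09 SE; edgeR, adjusted p = 3.0e-05). All GLCC1 libraries were well below all control libraries. Exons of FOXH1 on the other strand cover 17.8% of the exon bases of KIFC2. The library kit does not mark strand, so reads of these genes cannot be told apart there. Union-mode counting without strand would set such reads aside as ambiguous and leave them out of both genes. KIFC3, found at adherens junctions and the Golgi, was at 91.0 ± 6.52 and 79.9 ± 3.42 CPM (SD, n = 3), did not overlap between the groups and was called only without GLCC1 replicate 2 (log2 fold change -0.15; edgeR, adjusted p = 0.036).

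**Figure D4:**
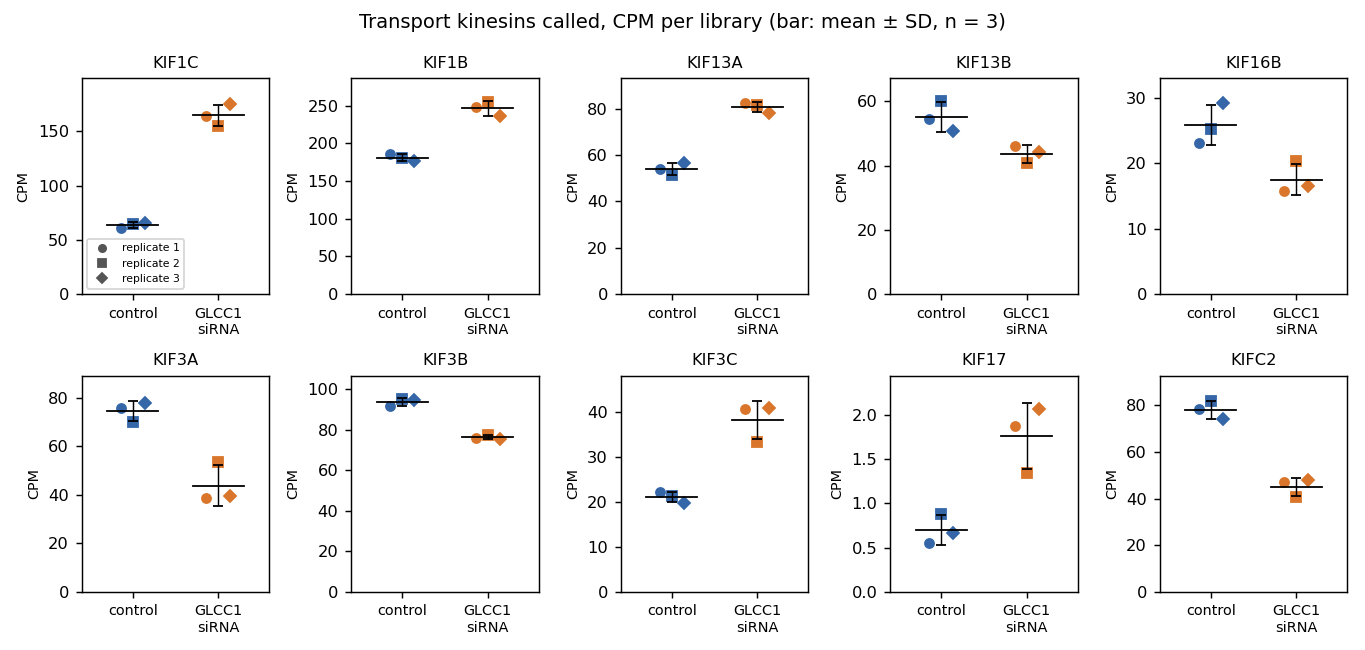
CPM of the 10 called transport kinesins in each library, with a different marker for each replicate number, horizontal lines at the means and bars of 1 SD (n = 3). The control and GLCC1 libraries do not overlap in any of the 10 panels, with KIF1C, KIF1B, KIF13A, KIF3C and KIF17 higher and KIF13B, KIF16B, KIF3A, KIF3B and KIFC2 lower.

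None of the 4 tested kinesins of cilia and centrioles was called by edgeR, and 0 passed at an unadjusted p of 0.05 or in DESeq2. KIF7, the regulator of Hedgehog signalling at the ciliary tip, was at 34.2 ± 2.89 and 30.8 ± 2.83 CPM, its relative KIF27 at 8.20 ± 1.11 and 9.99 ± 2.04 CPM, and KIF24, which holds back cilia at the centriole, at 29.9 ± 0.640 and 31.1 ± 2.84 CPM (SD, n = 3). KIF9, of motile cilia, was at 8.12 ± 0.564 and 9.69 ± 0.901 CPM without overlap of the groups, but 17.8% of its exon bases are shared with KIF9-AS1 and KLHL18. KIF6 and KIF19, also of motile cilia, had at most 4 and 1 read pairs in any library.

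Of the remaining kinesins, KIF26A, KIF12 and KIF21B fell and KIF21A rose. KIF26A, a family member without ATPase activity, was at 59.1, 66.7 and 58.5 CPM in the control libraries and at 34.0, 23.5 and 33.4 CPM in the GLCC1 libraries (log2 fold change -1.01 ± 0.13 SE; edgeR, adjusted p = 5.1e-05). Its level in the GLCC1 libraries was 0.496 times the control level, with GLCC1 replicate 2 the lowest. KIF12, an epithelial kinesin known from kidney and liver, had 28, 36 and 24 read pairs in the control libraries and 13, 14 and 11 in the GLCC1 libraries (log2 fold change -1.20 ± 0.31 SE; edgeR, adjusted p = 0.0094). Its groups did not overlap, at 1.45 to 1.98 and 0.615 to 1.11 CPM.

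KIF21A and KIF21B slow microtubule growth and are close relatives. KIF21A was at 64.0, 52.2 and 59.9 CPM in the control libraries and at 78.5, 94.2 and 74.1 CPM in the GLCC1 libraries (log2 fold change 0.48 ± 0.11 SE; edgeR, adjusted p = 0.0041). KIF21B was at 35.3, 40.7 and 42.6 CPM against 31.0, 27.6 and 35.0 CPM (log2 fold change -0.34 ± 0.11 SE; edgeR, adjusted p = 0.034). The groups of KIF21B were separated by only a narrow gap, and its call was lost without control replicate 2, control replicate 3 or GLCC1 replicate 1 (edgeR, adjusted p = 0.12, 0.16 and 0.084). KIF25 and KIF26B had between 4 and 19 read pairs in every library and were not called.

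Summed per kb of exon, the mitotic kinesins made up most of the kinesin total in every library. Their sum was 331 to 334 CPM per kb of exon in the control libraries and 331 to 353 in the GLCC1 libraries, or 61.4 to 61.6% and 62.0 to 62.8% of the sum over all 42 genes. The sum of all transport kinesins was 175 to 177 and 170 to 188 CPM per kb, and KIF5B alone, at 83.0 to 87.8 and 76.2 to 96.6, supplied the largest share of it. Within that sum the parts shifted. Kinesin-3 transport motors were at 33.1 to 34.5 CPM per kb in the control group and at 48.8 to 50.4 in the GLCC1 group, kinesin-2 motors from at least 29.3 to at most 26.0, and the other transport motors from at least 25.8 to at most 19.3. These sums were not tested, and the sum over a class is led by its most abundant genes. The shares also depend on the length used, the union of a gene's exons, such as 18915 bases for KIF1B and 3030 for KIFC1. Such a union can exceed the length of the transcripts made, which lowers the level per kb. In the control libraries the highest levels per length were those of KIF5B (85.5 CPM per kb), KIFC1 (54.5), KIF11 (45.5), KIF20A (40.0) and KIF23 (33.0).

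**Figure D5:**
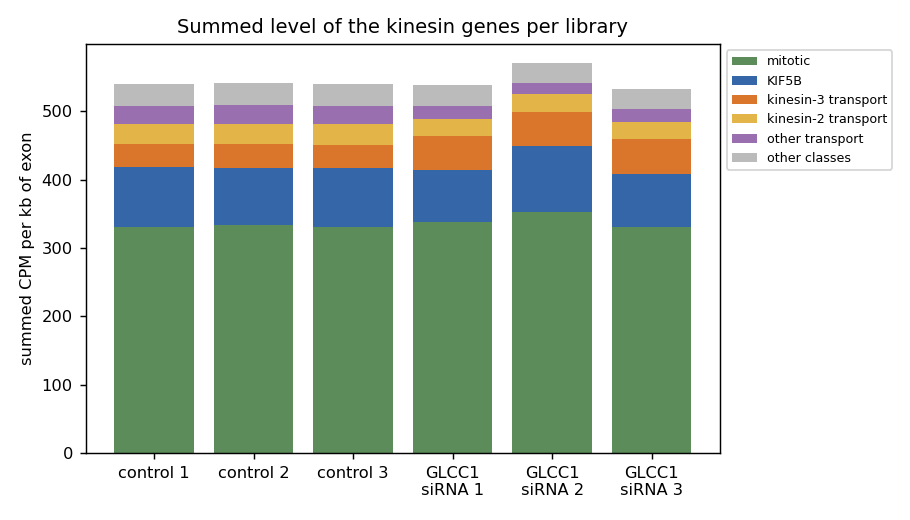
Summed level of all 42 kinesin genes in each library, in CPM per kb of exon, split by class and, for the transport kinesins, by family. Total bar heights lie between 532 and 569, the mitotic part between 331 and 353, and the kinesin-3 part is thicker in the GLCC1 libraries (48.8 to 50.4) than in the control libraries (33.1 to 34.5).

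Genes that work with the mitotic kinesins did not share a direction. Of 18 partners tested, 4 rose and 4 fell, with a median log2 fold change of 0.00. The share called, 44.4%, lay near the background of 49.4% of genes at 5 CPM or more, the range of all 18. The kinases PLK1 and AURKA, which control the spindle poles and the onset of mitosis, fell (log2 fold change -0.56 ± 0.11 SE and -0.50 ± 0.09 SE), while BIRC5, a subunit of the chromosomal passenger complex, and NUSAP1, a spindle microtubule binder, rose (0.56 ± 0.09 SE and 0.54 ± 0.09 SE; edgeR, adjusted p between 0.00035 and 0.0013 for these 4). CENPE, the kinesin that holds kinetochores to microtubules, was at 113, 107 and 107 CPM in the control libraries and at 94.6, 136 and 94.0 CPM in the GLCC1 libraries, with replicate 2 above and the others below all control libraries (log2 fold change -0.02 ± 0.13 SE; edgeR, adjusted p = 0.94). Without replicate 2 it was called lower (log2 fold change -0.21; edgeR, adjusted p = 0.0021). STARD9, a kinesin of the centrosome, had a log2 fold change of 0.05 ± 0.09 SE.

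Of 22 regulators of mitotic genes tested, 12 rose and 3 fell (68.2% called), with a median log2 fold change of 0.33, where 20.7% of genes at 5 CPM or more rose and 28.7% fell. The list holds the readers of the CHR and CCAAT motifs shown above and E2F and pocket proteins. E2F1 and E2F2, activators of genes for S phase, rose by log2 fold changes of 1.22 ± 0.11 SE and 1.02 ± 0.12 SE, RBL1 (p107) by 0.72 ± 0.10 SE, and NFYB, an NF-Y subunit, by 0.70 ± 0.10 SE (edgeR, adjusted p between 3.3e-06 and 0.00012). Of these, NFYB was at 59.6, 52.9 and 57.0 CPM in the control libraries and at 89.4, 103 and 83.3 CPM in the GLCC1 libraries. The part of these regulators in the values of the mitotic kinesins was not tested.

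Of 20 partners of transport kinesins tested, 0 rose and 8 fell in edgeR's test, with a median log2 fold change of -0.09. The 40.0% called compare with 31.6% of all genes. At 5 CPM or more, 5 of 16 partners were called (31.2%), below the background of 49.4% in that range. CLSTN1 and PLEKHM2 were the 2 that were higher at an unadjusted p of 0.05, and DESeq2 called 2 genes higher. The absence of higher calls in edgeR's test depended on GLCC1 replicate 2, without which CLSTN1, PLEKHM2 and KLC1 were called higher (edgeR, adjusted p = 2.9e-07, 1.5e-06 and 0.021). The mitochondrial GTPases RHOT1 and RHOT2 (Miro) fell by 0.61 ± 0.09 SE and 0.61 ± 0.12 SE on the log2 scale, TRAK2, which links them to kinesin-1, by 0.44 ± 0.10 SE, and the kinesin light chain KLC4 by 0.54 ± 0.12 SE (edgeR, adjusted p between 0.00020 and 0.0044). RHOT1 was at 74.6, 73.8 and 70.1 CPM in the control libraries and at 48.6, 51.2 and 43.6 CPM in the GLCC1 libraries. Dynein and dynactin, which move cargo the other way, had 6 genes higher and 7 lower of 27 (48.1% called) and a median of -0.20. At 5 CPM or more 46.2% were called, near the same background of 49.4%. In this list the dynactin subunits DCTN4 and DCTN2 fell (-1.07 ± 0.09 SE and -0.71 ± 0.09 SE) and the dynein light chains DYNLT3 and DYNLL2 rose (1.02 ± 0.13 SE and 0.74 ± 0.08 SE; edgeR, adjusted p between 8.0e-07 and 4.0e-05). Tubulins, the subunits of the track itself, had 1 gene higher and 4 lower of 11 and a median of -0.22, and at 45.5% called were also near it. TUBB2A, TUBB4B, TUBB6 and TUBA4A fell by 1.01, 0.79, 0.68 and 0.45 on the log2 scale (edgeR, adjusted p between 2.1e-05 and 0.0090).

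An siRNA can also lower mRNAs whose 3′ UTR pairs with bases 2 to 8 of its guide strand, so the word ACCTTGA, which pairs with these bases of the study's siRNA 1, was looked for on the sense strand of the UTRs. Of the 38 tested members 6 held it (15.8%), against 11.4% of 13465 tested genes with a UTR and 12.3% of those at 5 CPM or more. They were KIF1C, KIF2A, KIF16B, KIF24, KIF26A and KIF26B. The median log2 fold change was 0.08 in these 6 and 0.03 in the other members, while over all genes it was -0.18 with the word and -0.02 without it. UTR lengths were not matched in either comparison. The sites of the 3 called members are shown with the word in capitals (GENCODE 44 transcripts on hg19), since KIF1C rose and the others fell.
KIF1C, chr17:4929701-4929730, plus strand: tttccctaaagACCTTGActtatgtaaatg
KIF16B, chr20:16253189-16253218, minus strand: atatttatttaACCTTGAatattcaagaac
KIF26A, chr14:104646355-104646384, plus strand: aagtgcctttgACCTTGAtttggacttttc
The word thus stood in members that rose, fell or were not called, and the part of such pairing in their values was not tested.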

How the data were processed

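The authors aligned reads to hg19/GRCh37 (TopHat2 2.0.11 in the submitters' processing notes) and deposited HTSeq raw counts per gene symbol for each of 6 libraries. Of the read pairs listed there as uniquely aligned, 11.2 to 14.2% fell on no gene and 8.19 to 8.89% were ambiguous, and these lines were left out. The TruSeq RNA kit does not mark strand, and the strand setting of the counting is not given in the sources used here. The study's methods name HTSeq's union mode, in which reads on exons of several genes are ambiguous. Genes with at least 5 counts summed over the libraries of either group were fitted with edgeR 4.0.16 (R 4.3.3; TMM factors, robust quasi-likelihood test, Benjamini-Hochberg adjustment over 23074 genes). Levels are CPM, divided by the union of GENCODE 44 exons where given per kb. Counts of 3 or fewer were taken as the limit of detection, which for these depths is 0.156 to 0.239 CPM and covers counting error only.

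The members and lists were chosen with earlier results of these data known. Every member was accounted for. Values per library were given for called members and for KIF4A with KIF4B, and the up to 4 called genes of each partner list with the largest change at a mean of at least 5 CPM were named, with CENPE. A gene of the regulator list is not reported here. STARD9, KIFAP3 and the other members' values were added after they were seen. Tested on data simulated for this comparison (22246 genes), edgeR recovered 75 of 100 genes changed 1.5-fold and 100 of 100 changed 2-fold, with 15 of 190 calls false. The same test with DESeq2 1.42.0 recovered 72 and 100. Alternatives were other size factors, library totals, other filters, DESeq2, a replicate block, stricter calls and the omission of each library. Same-numbered libraries of the groups did not deviate together (r = -0.18, -0.32 and -0.01 over 14875 genes), so the numbers were not taken to pair them.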

Additional observations from a re-analysis of the deposited data

Results flagged for a closer look

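The lines of the files that hold reads on no annotated gene, which none of the comparisons use, differed between the groups. They made up 12.5% of uniquely aligned read pairs in the lowest of the 3 libraries labelled GLCC1 siRNA and 14.2% in the highest, replicate 2, against 11.2 to 11.5% in the control libraries. The part of this share in the kinesin values was not tested.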

How the results depend on the processing

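DESeq2 and edgeR with DESeq2's size factors each called 7 members higher and 10 lower, as the reported test did. Depth limited KIF17, KIF12, KIF4B, KIF25, KIF26B and KIF5A, which have few reads per library. A mitotic kinesin that was not called can still differ by a small amount. The simulated recovery of 75 of 100 changes of 1.5-fold does not tell how often such a change would be called in these genes. Only 200 genes, of any level from 5 CPM up, were changed there, whereas 31.6% of all genes tested passed in the data. 

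With library totals alone, 11 members were higher and 5 lower, mitotic kinesins were 4 and 0 with a median log2 fold change of 0.15, and the transport kinesins had 3 lower and a median of 0.17. With at least 10 counts in every library, where 46.9% of all genes were called, 2 mitotic kinesins were higher and the transport median was -0.073. With at least 1 count in any library that median was -0.038, and it was 0.061 with DESeq2's size factors and with its Wald test. The filters also changed how many transport kinesins were tested, from 14 to 12 with at least 10 counts and to 15 with at least 1. DESeq2's size factors moved the median of all genes from 0.03 to 0.04. The part of each in the transport median was not tested. A replicate block left 7 members higher and 8 lower, with 1 mitotic kinesin lower, against 28.3% of all genes tested and 44.1% of those at 5 CPM or more. KIF20A and KIF3B lost their calls under the block, at an adjusted p of 0.067 and 0.051 (edgeR). No GLCC1 library correlated best with the control library of its own number.

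At an adjusted p of 0.001, 4 members were higher and 3 lower, 0 mitotic kinesins were called in either direction and 2 transport kinesins were lower. The share of all genes passing 0.001 was not worked out. Counts under that rule, also those of the partner lists, thus have no background beside them. With at least a 1.5-fold change required, 4 members were higher and 4 lower, no mitotic kinesin was lower (0), and 3 transport kinesins were higher and 2 lower. Of all genes tested 17.4% passed this fold rule, and of those at 5 CPM or more 21.6%. The partner lists went to 4 and 0 called for mitotic partners under these 2 rules, 3 and 5 for transport partners, 6 and 6 for dynein and dynactin, and 3 and 3 for tubulins, and 6 mitotic gene regulators passed the fold rule. Counting all kinesins that are not mitotic with the transport kinesins gave 6 higher, 8 lower and a median of 0.086. The genes so added were 4 ciliary kinesins, of which 0 were called, and 6 remaining ones, of which 4 were called. The background stayed at 31.6% of all genes tested and 49.4% of those at 5 CPM or more.

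Leaving out 1 library at a time gave 7 to 9 members higher and 5 to 13 lower, 1 to 2 mitotic kinesins higher and 0 to 3 lower, a mitotic median of -0.0042 to 0.088, 5 to 6 transport kinesins higher and 3 to 7 lower, and a transport median of 0.032 to 0.075. The partner lists had 6 to 11 mitotic partners, 7 to 11 transport partners, 12 to 18 dynein and dynactin genes, 3 to 6 tubulins and 11 to 20 regulators called. The share of all genes called moved as well, from 23.1% without control replicate 3 to 44.1% without GLCC1 replicate 2. The tubulins had 3 called without control replicate 2.

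A change of sign was seen only in kinesins with no call in the reported test. With library totals the log2 fold change was 0.07 for KIF18A, 0.056 for KIF22, 0.089 for KIF23, 0.086 for KIF5B and 0.11 for CENPE. With at least 10 counts in every library the KIF23 log2 fold change was 0.0048, the KIF5B log2 fold change 0.0026 and the CENPE log2 fold change 0.023. Over the single-library omissions it ran from -0.0004 to 0.086 for KIF4A, -0.092 to 0.090 for KIF14, -0.12 to 0.0034 for KIF18A, -0.069 to 0.0076 for KIF23, -0.15 to 0.029 for KIF5B, -0.0069 to 0.12 for KIF24, -0.11 to 0.39 for KIF25 and -0.21 to 0.077 for CENPE. Of the 528 values of members under the alternatives, 463 kept direction and call, 38 lost the call, 10 gained one and 17 changed sign. For the other named genes these were 275, 13, 1 and 5 of 294.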

Other observations

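Within several pairs of related kinesins the balance of the transcripts differed between the groups, as ratios of counts within a library that do not depend on its scaling. These pairs were chosen after their values were seen, and the ratios were not tested. KIF13A to KIF13B was 0.995, 0.856 and 1.11 in the control libraries and 1.79, 2.01 and 1.77 in the GLCC1 libraries. KIF20B to KIF20A, of the kinesin-6 family, was 0.982, 0.840 and 0.862 against 1.36, 2.45 and 1.38, with GLCC1 replicate 2 far above the others. KIF21A to KIF21B was 1.81, 1.28 and 1.41 against 2.53, 3.41 and 2.12, and KIF1C to KIF1B was 0.326, 0.360 and 0.372 against 0.657, 0.607 and 0.739. The groups did not overlap in any of these 4 ratios. KIF3B to KIF3A, at 1.21, 1.36 and 1.21 against 1.97, 1.45 and 1.91, did not overlap either, and GLCC1 replicate 2 was the closest to the control libraries.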
